A study of Mus musculus with 4 samples.

Results

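The genes described here are the collagen and laminin chains, the building blocks of the extracellular matrix of fat. They were chosen by name, as genes whose symbol in the array annotation is that of a collagen alpha chain or of a laminin alpha, beta or gamma chain, and each was represented by its probe set with the highest mean log2 signal over the 4 arrays. This gave 52 genes of the 18194 measured, 42 collagen and 10 laminin chains. RNA came from the epididymal fat pad, a visceral depot, taken from C57Bl/6J mice fed a diet with 60% of energy from fat for 21 weeks, from 9 weeks of age onward. The diets differed in calcium and in protein: 1 held 1.8% calcium and whey protein isolate, and the standard high-fat diet held 0.4% calcium. Of 10 mice fed each diet 2 were profiled, and by the labels 2 arrays belong to the high-calcium whey diet, here called replicates 1 and 2, and 1 to the standard diet. The remaining array carries no label that settles its diet. It entered no comparison between the diets, and its values are given as those of the array of open diet.

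Collagen chains wind around each other as trimers. The fibrillar types I, III and V form the rope-like fibrils of interstitial matrix, type VI forms beaded filaments that surround fat cells, and type IV forms the sheet of the basement membrane, in which each adipocyte is wrapped. Laminins are cross-shaped trimers of an alpha, a beta and a gamma chain that polymerise into the cell-facing layer of the same membrane, and their alpha chain carries the main binding sites for cell receptors. In obese fat the interstitial matrix is known to accumulate around fat cells, and collagen VI in particular has been studied there.

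Signals are the authors' deposited linear intensities, given below as log2 values, and a gene counted as above background on an array where its signal exceeded the median of all probe sets on that array. That median was 0.0963 and 0.0628 on replicates 1 and 2, 0.0624 on the standard array and 0.0585 on the array of open diet, so that dim probe sets were brighter on replicate 1. By this rule 25 of the 52 chains were above background on all 4 arrays, 13 on some and 14 on none, counted on the probe set that represents the gene. For 13 of those 14 no other probe set was above background on any array either; the exception was Lamc3. The 25 were 6 of 11 fibrillar chains, 9 of 16 basement membrane chains (collagen IV and laminins) and 10 of 25 other collagens. All 6 measured adipocyte markers, among them Adipoq and Lep, were above background on every array. Each diet group holds so few arrays that their number limits the precision throughout, and with a single standard array a difference between the diets cannot be told apart from a difference between that mouse and the others. In whole fat, fewer cells of a type and less RNA per cell cannot be told apart either.

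Col1a2 and Col3a1 are fibrillar chains with their lowest signal on replicate 1, although Col3a1 differed by only -0.03 from the standard array there. Lama5 was the chain with the largest difference from the standard array among those above background on all arrays. Promoter sequences are shown for these 3 chains. They are RefSeq sequences of build GRCm38.p6, written 5′ to 3′ on the gene's strand. Each runs through the 250 bases before the annotated start, without bases inside a protein-coding gene, which shortened the Lama5 stretch to 205 bases. Col1a2 lies at chr6:4505368-4505617 on the plus strand, Col3a1 at chr1:45311288-45311537 on the plus strand and Lama5 at chr2:180225905-180226109 on the minus strand. Capitals mark matches to the CCAAT box (CCAAT or ATTGG), the GC box (GGGCGG or CCGCCC) and the TATA box (TATAAA or TTTATA).
Col1a2: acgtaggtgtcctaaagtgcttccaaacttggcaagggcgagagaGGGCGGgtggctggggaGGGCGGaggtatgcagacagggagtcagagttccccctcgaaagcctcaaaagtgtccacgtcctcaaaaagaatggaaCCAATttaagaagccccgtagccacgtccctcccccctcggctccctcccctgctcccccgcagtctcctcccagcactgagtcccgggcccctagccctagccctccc
Col3a1: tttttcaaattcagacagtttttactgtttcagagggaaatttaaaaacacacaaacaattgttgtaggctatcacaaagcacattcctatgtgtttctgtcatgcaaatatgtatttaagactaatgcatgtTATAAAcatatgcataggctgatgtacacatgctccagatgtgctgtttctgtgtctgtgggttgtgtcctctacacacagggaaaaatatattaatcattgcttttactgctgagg
Lama5: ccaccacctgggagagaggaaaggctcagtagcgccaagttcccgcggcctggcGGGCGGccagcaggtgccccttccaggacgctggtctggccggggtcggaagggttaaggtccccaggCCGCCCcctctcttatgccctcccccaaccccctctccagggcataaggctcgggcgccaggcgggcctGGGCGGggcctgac
The Col1a2 stretch held 1 CCAAT box and 2 GC boxes, the Col3a1 stretch held 1 TATA box, and the Lama5 stretch held 3 GC boxes. The 250 bases before a start held a CCAAT box in 33.8% of all 32851 promoters in the table, a GC box in 32.7% and a TATA box in 12.4%. Among the 42 promoters listed for 38 of the chains these shares were 33.3%, 54.8% and 11.9%. A match is a description of the letters and not a site of binding.

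Between the diets no collagen or laminin chain passed the test. limma, adjusted over all 18194 genes by the Benjamini-Hochberg method, called 0 of the 52 chains at an adjusted p under 0.05, and it called 0% of all genes. At an unadjusted p under 0.05 there were 4 chains, Lama5, Col7a1, Col9a3 and Col11a1, against 4.94% of all genes, and all 4 were higher on the high-calcium arrays (4.02% of all genes were higher and 0.918% lower at that p). Lama5 was the 1 of them above background on all arrays, against 0.182% of such genes in either direction, 0.0573% higher and 0.124% lower. limma with a trend in the prior variance and robust fitting called 0 chains, 0.033% of all genes and 0.0478% of those above background. Among the 25 chains above background on all arrays, 8 were higher on both high-calcium arrays than on the standard array and 3 were lower on both, where 35.4% of all such genes were higher and 27.1% lower. A chain at least 1.5-fold higher on both arrays was found once, Lama5, and at least 1.5-fold lower on both in 0 cases, against 2.11% and 1.12% of genes above background. Over all 52 chains, dim ones included, 20 were higher on both and 8 lower on both (38.6% and 23.9% of all genes), and a 1.5-fold difference on both was reached upward by 10 and downward by 2 (12.7% and 4.49%). The median log2 difference was 0.02 over the 25 chains and 0.03 over all 10463 genes above background. When arrays were set to a common median, which moved the median of all genes above background to -0.29, 2 chains (8.0%) were higher on both arrays and 5 (20.0%) were lower, where 7.99% and 46.7% of all genes above background were.

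**Figure D1:**
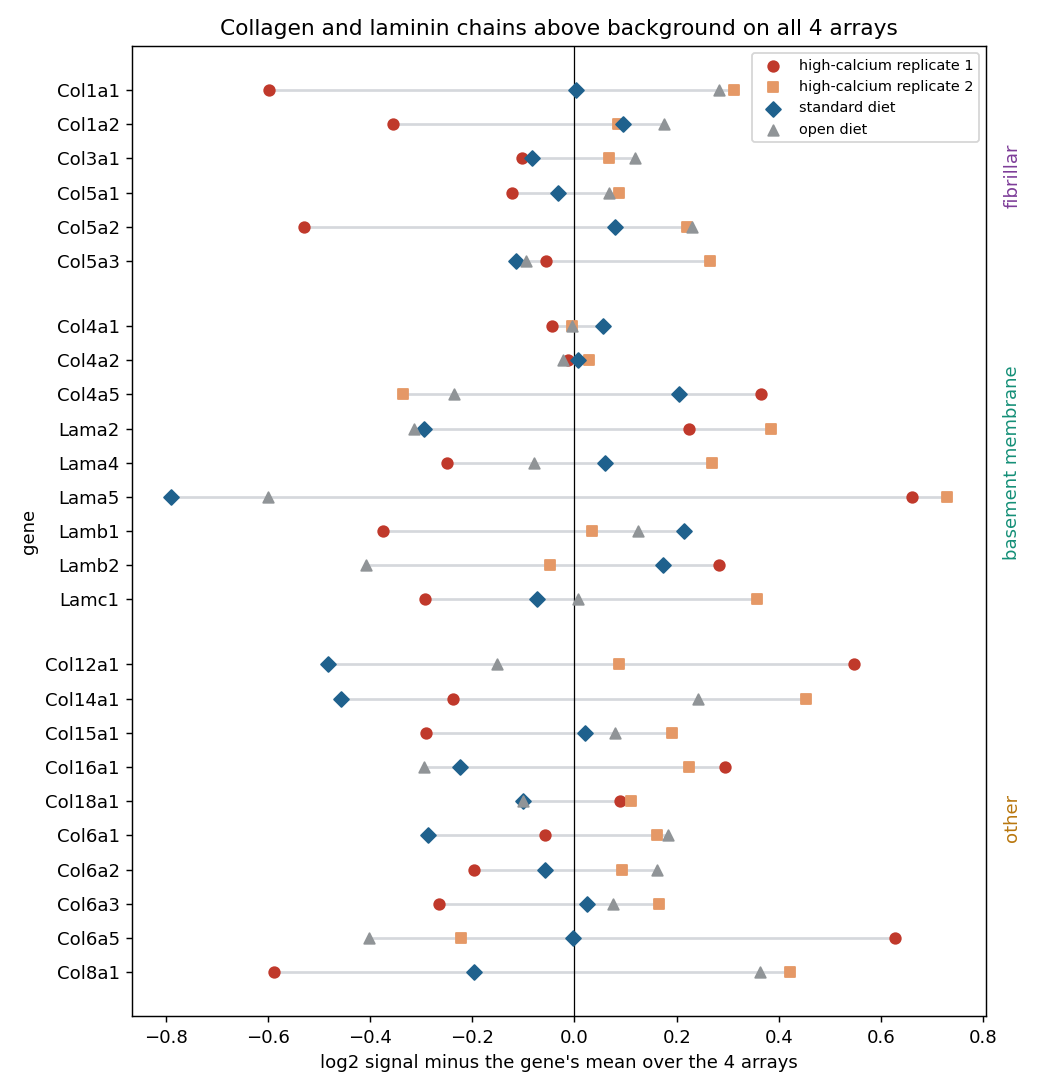
Log2 signal of each chain on each array, minus that gene's mean over the 4 arrays, for the 25 chains above background on all arrays, grouped by family; each point is 1 array and the grey bar spans the range of the 4. Lama5 had the widest spread with both high-calcium arrays on the right, Col4a1 and Col4a2 were nearly at the same level on all arrays, and the red points of replicate 1 lie leftmost for Col1a1, Col1a2 and Col5a2.

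Among fibrillar chains, replicate 1 carried lower signal than replicate 2 for all 6 above background, against 41.9% of all genes above background. Col1a1, the major chain of type I collagen, had log2 signals of -0.28 and 0.63 on replicates 1 and 2, 0.32 on the standard array and 0.60 on the array of open diet. Replicate 1 was thus the lowest of the 4 and replicate 2 lay above the standard array. The mean difference was -0.14 (SE 0.60, 95% interval from -2.38 to 2.09), while the 2 high-calcium arrays were 1.88-fold apart. Col1a2, the partner chain of the same trimer, had 1.64 and 2.08 on the high-calcium arrays, 2.09 on the standard array and 2.17 on the array of open diet. Again only replicate 1 stood apart, with a mean difference of -0.23 (SE 0.40). Both type I chains thus had their lowest value on the same array.

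Type III collagen is a homotrimer of Col3a1 that co-assembles with type I in thin fibrils. Col3a1 had 4.06 and 4.23 on the high-calcium arrays, 4.08 on the standard array and 4.28 on the array of open diet, a range within which the diets overlapped. Its difference was 0.06 (SE 0.33, 95% interval from -1.17 to 1.29). Type V collagen sets the diameter of type I fibrils, and its chains did not move as a block. Col5a2 had 1.82 on replicate 1 and 2.57 on replicate 2, against 2.43 on the standard array and 2.58 on the array of open diet. Replicate 1 was 1.53-fold below the standard array and replicate 2 was 1.10-fold above it. Col5a1 had 1.21 and 1.42 against 1.30 and 1.40 on the standard array and the array of open diet. Col5a3, a minor chain of this type, had 0.87 and 1.19 against 0.81 and 0.83, so that it alone of the 6 was higher than the standard array on both high-calcium arrays. None of these differences exceeded the gap between the high-calcium arrays.

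The other 5 fibrillar chains were dim. Col27a1 was above background on 3 arrays, with -2.71 on replicate 2, -3.58 on the standard array, -3.34 on the array of open diet and -3.90 under background on replicate 1. Col2a1, Col11a1 and Col11a2, known as cartilage chains, and Col24a1 were above background on 0 arrays. Col11a1 was among the 4 chains with an unadjusted p under 0.05, but its signals of -4.17, -4.36 and -5.61 on replicates 1 and 2 and the standard array were all under background and give no fold.

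**Figure D2:**
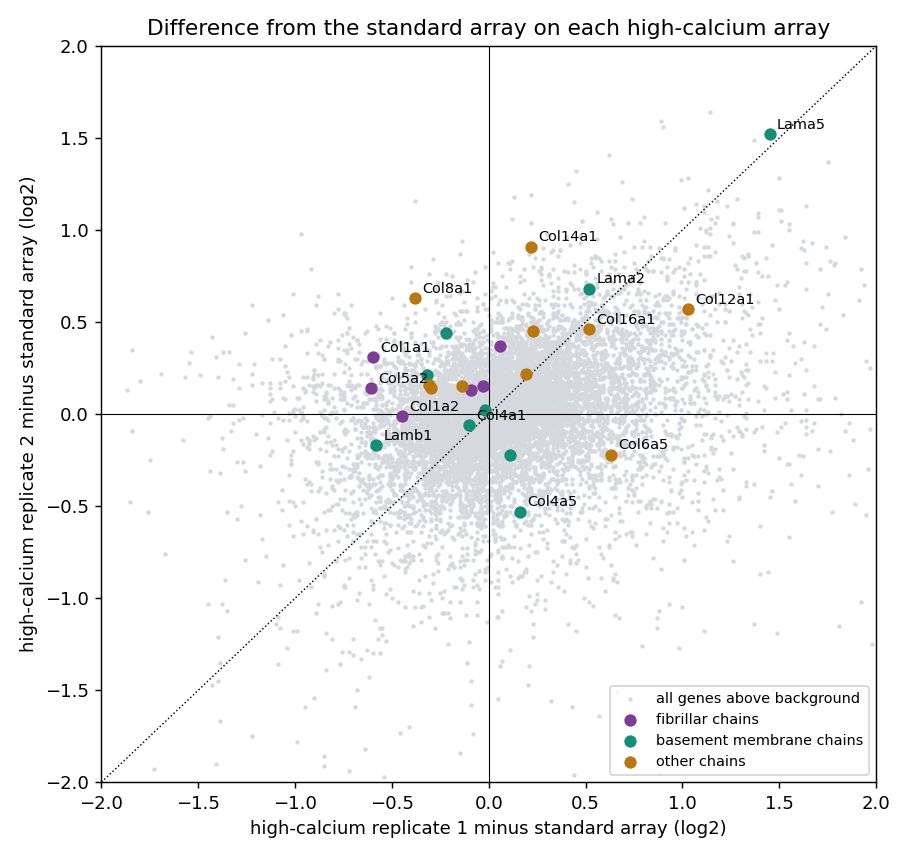
Log2 difference from the standard array on replicate 1 (x axis) and replicate 2 (y axis); grey points are the 10463 genes above background on all arrays within the axis limits, coloured points are the 25 chains, and the dotted line marks equal differences. Of the 25 chains 20 lie above the dotted line, against 41.9% of all genes above background, and Lama5 lies near it at 1.45 and 1.52.

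Basement membrane chains above background held a steady pair, while the others, Col4a5 and the laminins, varied more over the 4 arrays. Col4a1 and Col4a2, which form the ubiquitous trimer of collagen IV and whose genes lie head to head with overlapping RefSeq spans, were the steadiest. Col4a1 had 3.77 and 3.81 on the high-calcium arrays, 3.87 on the standard array and 3.81 on the array of open diet. Col4a2 had 2.63 and 2.67 against 2.65 and 2.62. The differences were -0.08 for Col4a1 and -0.0031 for Col4a2, each with an SE of 0.32 from the moderated fit, where replicates 1 and 2 had an SD of 0.03 in each case. A second probe set of Col4a1 gave -0.41 on replicate 1 and -0.02 on replicate 2.

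The other pairs of collagen IV genes were dimmer. Col4a5, a chain of the membranes of smooth muscle and kidney, had -0.31 and -1.01 on replicates 1 and 2, -0.47 on the standard array and -0.91 on the array of open diet. Its order was the reverse of that of Col1a1, with replicate 1 highest. Its neighbour Col4a6 had -4.20, -4.27, -3.90 and -4.64 on the same arrays in turn on its representative probe set, above background on the standard array only. A second Col4a6 probe set was above background on replicate 1 only, at -2.77 against -5.91 on the standard array, so that the pair disagreed. Col4a4 had -3.45 and -4.14 on the high-calcium arrays, under background, and -2.94 on the standard array. A second Col4a4 probe set was above background on replicate 1, at -3.29, so that no bound is given for the gene (adjusted p = 0.9999 with limma). Its neighbour Col4a3, the partner in the trimer of the glomerular membrane, was under background on every array.

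Laminin alpha chains gave the largest difference. Lama5, the alpha chain of laminins of epithelial, mesothelial and mature endothelial membranes, had log2 signals of -1.88 and -1.81 on replicates 1 and 2, -3.33 on the standard array and -3.14 on the array of open diet. Both high-calcium arrays lay above the single standard array, as for 35.4% of all genes above background. The array of open diet lay near the standard array. The high-calcium mean was -1.84 ± 0.05 (SD, n = 2), 2.80-fold above the standard array, a log2 difference of 1.48 (SE 0.32, 95% interval from 0.30 to 2.67; limma adjusted p = 0.978, and 0.980 to 1 over 6 other choices of probe set, scaling, constant and filter). A second Lama5 probe set, above background on 2 arrays, had -3.55, -3.46 and -3.38 on replicates 1 and 2 and the standard array, so that it did not share this difference. With the mean of all Lama5 probe sets the difference was 0.86.

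Lama2, the alpha chain of muscle and nerve basement membranes, was also higher on both high-calcium arrays. It had -0.30 and -0.14 there, -0.82 on the standard array and -0.84 on the array of open diet. The difference of 0.60 (SE 0.33, 95% interval from -0.62 to 1.83) was larger than the gap of 0.16 between replicates 1 and 2, and limma gave an adjusted p of 0.9999. On median-centred arrays it was 0.28, and 1 basement membrane chain was then higher on both high-calcium arrays. The median gap between replicates 1 and 2 over the 9 basement membrane chains was then -0.68, against -0.07 as deposited. Lama4, the alpha chain of capillary and fat cell membranes, had 0.29 and 0.81 against 0.60 and 0.46, so that the standard array lay between the high-calcium arrays.

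The beta and gamma chains that pair with these alpha chains showed no such gap. Lamb1 had 1.16 and 1.57 on the high-calcium arrays, 1.75 on the standard array and 1.66 on the array of open diet, and was 1 of 3 chains above background that were lower on both, beside Col1a2 and Col4a1. Its mean difference was -0.38 (SE 0.39), and its probe sets disagreed, as 1 of the other 2 above background gave 0.47 and 0.55 on replicates 1 and 2. Lamb2, the beta chain of vessel walls and synapses, had -1.49 and -1.82 against -1.60 and -2.18. Lamc1, the gamma chain of nearly all laminins, had -0.33 and 0.32 against -0.11 and -0.03, with the high-calcium arrays 1.57-fold apart. A laminin trimer of alpha 5, beta 1 and gamma 1 thus had its chains at log2 differences of 1.48, -0.38 and 0.11.

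Chains of the epithelial anchoring structures were at the edge of detection. Lamb3, a chain of the laminin that holds epithelium to its membrane, had -2.71 and -3.46 on the high-calcium arrays and -3.52 on the array of open diet, all above background, and -4.49 on the standard array, under it, which makes it at least 1.89-fold higher (adjusted p = 0.9999 with limma). Lama3, the alpha chain of the same laminin, went the other way, with -4.41 and -4.81 under background and -3.73 just above it on the standard array. Col7a1, the collagen of anchoring fibrils under epithelium, had -2.25 and -3.40 on the high-calcium arrays and -5.85 on the standard array, at least 2.26-fold higher with an adjusted p of 0.979. On the array of open diet it had -4.19, under background. Col17a1, of the same junction, was under background on every array, as was Lama1. The representative probe set of Lamc3 was too, while another had -3.59 on replicate 2, above background there. The bounds of Lamb3 and Col7a1 hold on the deposited scale only. Replicate 1 had the highest array median, so that centring would lower them. Markers of duct epithelium, given beside these chains, summed to linear signals of 5.07 and 1.01 on replicates 1 and 2, 6.48 on the standard array and 1.38 on the array of open diet over 11 measured genes. Of these, 10, 6, 10 and 5 were above background on those arrays in turn. Markers of mesothelium, all 9 above background, summed to 8.66, 2.70, 3.65 and 3.17. Of the 9 mesothelial genes 6 were higher on both high-calcium arrays and 0 were lower on both, against 35.4% and 27.1% of all genes above background. Upk3b differed by 1.08 (SE 0.41) and Upk1b by 1.05 (SE 0.44). The keratins Krt8, Krt18 and Krt19 of the same list differed by 0.77, 1.16 and 1.98 on replicate 1. On replicate 2 they differed by -2.22, -2.14 and -1.25. These keratins had the highest signals of the mesothelial list on replicate 1 and so weigh most in its sum there. In the duct list Lcn2 differed by -3.16 and Adgrg2 by -2.84, while Epcam was higher by 1.83 and 0.54 on replicates 1 and 2. Over the 11 duct genes, dim ones included, the median difference was 1.45 on replicate 1 and -2.84 on replicate 2. Of these genes 3 were higher and 3 lower on both arrays, against 38.6% and 23.9% of all genes. Endothelial markers, all 10 above background, summed to 7.20 and 6.25 on replicates 1 and 2, 10.4 on the standard array and 6.24 on the array of open diet. Both replicates were below the standard array for 9 of these, against 27.1% of all genes above background. For 4 of them both were at least 1.5-fold below it, against 1.12%. The median difference of the endothelial markers was -0.51, with Sox18 at -0.94 and Aplnr at -0.82. Their part in the values of Lama5, Lamb3, Lama3 and Col7a1 was not tested.

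**Figure D3:**
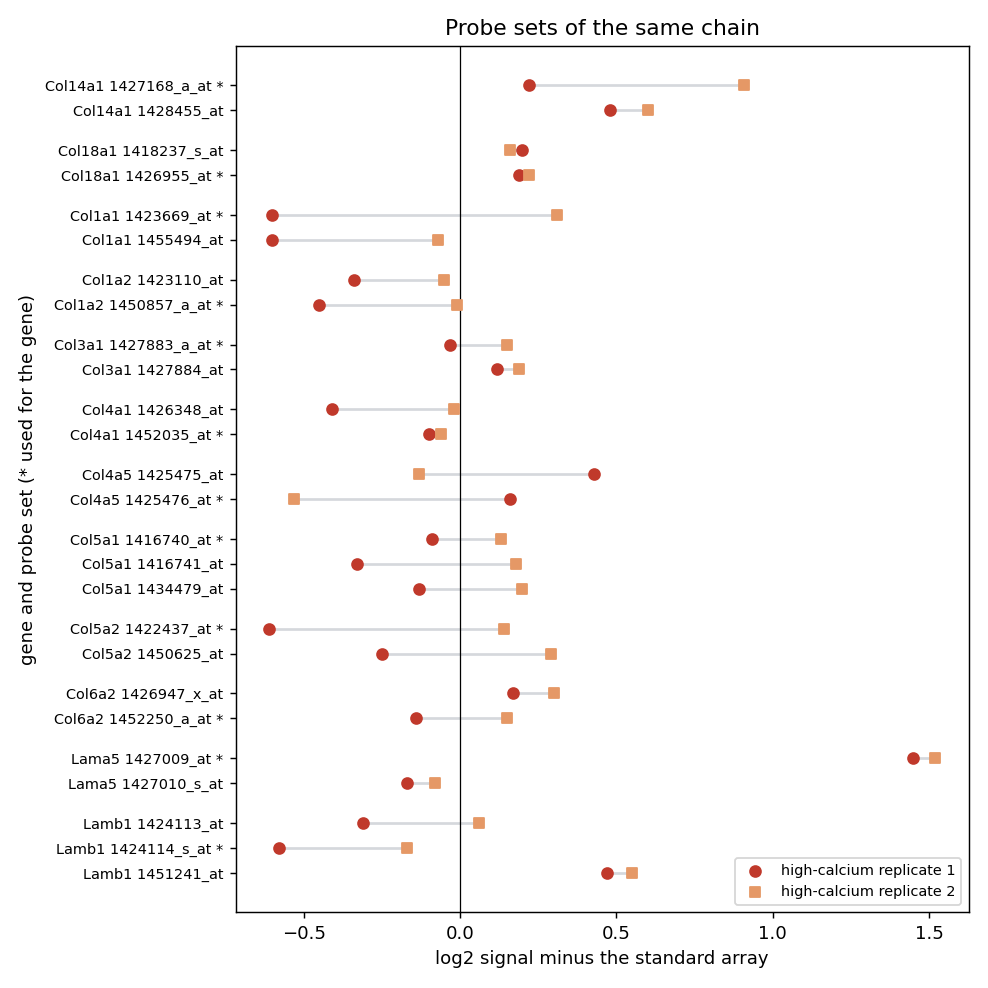
Log2 difference from the standard array on replicate 1 (circles) and replicate 2 (squares) for chains with more than 1 probe set above background on all arrays, and for the Lama5 pair, of which the unmarked probe set was above background on 2 arrays only; an asterisk marks the probe set used. Probe sets of Col1a2 and Col18a1 gave close values, those of Lamb1 and Lama5 did not.

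More than 1 probe set was above background on all arrays for 11 chains. The mean difference had the same sign in every such probe set for 7 of them and mixed signs for 4, which were Col4a5, Col5a1, Col5a2 and Lamb1. For Col1a1 both probe sets gave -0.60 on replicate 1, and on replicate 2 they gave 0.31 and -0.07. For Col3a1 the second probe set gave 0.12 and 0.19. Replicate 1 was thus below the standard array in both probe sets above background of Col1a1, Col1a2 and Col5a2. For Col3a1 it differed by only -0.03 in the first probe set and was higher in the second.

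Among the other collagens, the FACIT collagens bind the surface of type I fibrils without forming fibrils themselves. All 3 above background were higher on both high-calcium arrays, as 35.4% of all genes above background were, with a median log2 difference of 0.57. On median-centred arrays 1 of the 10 other collagens was higher on both, and the differences were 0.49 for Col12a1, 0.25 for Col14a1 and 0.17 for Col16a1. Col12a1, known from tendon and from tissue under load, had -1.80 and -2.26 on the high-calcium arrays, -2.83 on the standard array and -2.50 on the array of open diet. Both high-calcium arrays lay above the single standard array, and the difference was 0.80 (SE 0.41, 95% interval from -0.72 to 2.32). With the mean of all Col12a1 probe sets, some of them under background, it was 0.06. Col14a1, which regulates fibril diameter, had -0.27 and 0.42 against -0.49 on the standard array, with 0.21 on the array of open diet. Its second probe set gave differences of 0.48 and 0.60 against the 0.22 and 0.91 of the first. Col16a1 had -1.16 and -1.23 on the high-calcium arrays, -1.68 on the standard array and -1.75 on the array of open diet, a difference of 0.49 (SE 0.32) with an SD of 0.05 between replicates 1 and 2. limma gave an adjusted p of 0.9999 for each of these 3 genes. Of the 6 dimmer FACIT chains, Col20a1 exceeded background on replicates 1 and 2 only. It was at least 1.68-fold higher there on the deposited scale, a bound that centring would lower. Col9a1, Col9a2 and Col9a3 were under background on every array. Col19a1 was above background on replicate 1 only, and Col22a1 on replicate 1 and the standard array.

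Collagen VI chains, the filaments around fat cells, differed little. Col6a1 had 2.25 and 2.47 on the high-calcium arrays against 2.02 on the standard array and 2.49 on the array of open diet, a difference of 0.34 (SE 0.34, 95% interval from -0.92 to 1.60). The standard array was the lowest of the 4. Col6a2, its neighbour on the chromosome and partner in the trimer, had 2.60 and 2.89 against 2.74 and 2.96. Col6a3, the long chain from which the fragment endotrophin is cut, had 1.70 and 2.13 against 1.99 and 2.04. On the representative probe sets of these last 2 chains the standard array lay between the high-calcium arrays. A second Col6a2 probe set, also above background on all arrays, had 1.82 and 1.95 on replicates 1 and 2. There the standard array was the lowest at 1.64, and the array of open diet had 2.0. Col6a5 had -2.69 and -3.54 against -3.32 and -3.72, and Col6a4 was above background on replicate 1 only.

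Multiplexins join basement membrane to the matrix beneath and release anti-angiogenic fragments. Col18a1, the source of endostatin, had 0.74 and 0.76 on the high-calcium arrays and 0.55 on both the standard array and the array of open diet. As deposited, the difference of 0.21 (SE 0.32) was small but larger than the gap of 0.02 between replicates 1 and 2. A second probe set gave 0.20 and 0.16. On median-centred arrays the Col18a1 difference was -0.11, and the median gap over the 10 other collagens was then -0.87. Col15a1, a proteoglycan collagen at the outer face of basement membranes, had 0.33 and 0.81 against 0.64 and 0.70. Col8a1, a network-forming chain of vessel walls, had -2.0 and -0.99 against -1.61 and -1.05, and was the 1 chain above background whose high-calcium arrays lay at least 2-fold apart, which 6.32% of genes above background did. Its partner Col8a2 was above background on replicate 1 and the standard array only. Col10a1, of growth cartilage, and the transmembrane chains Col13a1 and Col25a1 were under background on every array, Col26a1 was above it on replicate 1 only and Col23a1 on all but replicate 2. Col28a1 and Col6a6 were not analysed here.

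Most chains had lower signal on replicate 1 than on replicate 2. Of the 25 chains above background 20 (80.0%) were lower on replicate 1 than on replicate 2, where 41.9% of all genes above background were, and the median gap was -0.22 against 0.07. As deposited, the gap exceeded the mean difference between the diets for 18 of the 25. On median-centred arrays the median gap over the 25 chains was -0.83. By family the median gap was -0.38 for fibrillar chains, -0.07 for basement membrane chains and -0.25 for other collagens. Within these families it was -0.04 for the 3 collagen IV chains and 0.06 for the 3 FACIT collagens, of which 1 was lower on replicate 1. The contrast with other genes depended on the scaling: on median-centred arrays 23 of 25 chains (92.0%) and 87.7% of all genes above background were lower on replicate 1. After quantile normalization 20 of 25 chains and 52.3% of genes were. When all probe sets per gene were averaged, dim ones included, the count was 13 of 25. Over all 52 chains 23 were lower on replicate 1 (36.3% of all genes), and 19 lay at least 2-fold apart between the high-calcium arrays (28.2%). Across the 4 arrays the profile of Col1a1, Col1a2 and Col3a1, each centred on its own mean, averaged -0.35 and 0.16 on replicates 1 and 2, 0.01 on the standard array and 0.19 on the array of open diet. Outside the chains the 5 genes nearest to that profile among 10438 were Ninj1, BC005537, Klf9, Rnf25 and Rhob, each at a root mean square distance of 0.02 log2 units over the 4 arrays. Of the 3 chains averaged, which are part of the profile, Col1a2 lay at 0.06, Col3a1 at 0.14 and Col1a1 at 0.15. Among the other chains Col15a1 (0.07) and Col6a3 (0.08) were nearest and Lama5 (0.81) farthest.

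Markers of other cells also differed between replicates 1 and 2. Smooth muscle markers, of which 9, 7, 9 and 7 of 10 were above background on replicates 1 and 2, the standard array and the array of open diet, summed to linear signals of 71.0, 12.4, 12.2 and 9.98; Lmod1 was under background on every array. Myh11 differed by 4.20 and -0.90 on replicates 1 and 2, and Smtn by 2.70 and 0.59. Fibroblast and progenitor markers, all 8 measured above background, summed to 15.0 and 22.4 on replicates 1 and 2, 25.2 on the standard array and 18.7 on the array of open diet. Pi16, a marker of fibroblast progenitors, had -3.26 and -1.38 on replicates 1 and 2 against -1.72 on the standard array. Of the 8 genes 6 were lower on replicate 1 than on replicate 2, against 41.9% of all genes above background. That share of all genes was 87.7% on median-centred arrays. The exceptions among the 8 were Dpp4, at 0.86 and 0.16 from the standard array, and Thy1, at 0.66 and 0.14. Macrophage markers, all 8 above background, summed to 34.8, 56.1, 53.3 and 55.9, with Trem2 at -1.84 and -0.09 and Csf1r at -0.81 and -0.17 from the standard array. Schwann cell markers, 5 measured and 3 above background on all arrays, summed to 5.34, 6.76, 6.15 and 6.63, and Cdh19 was under background on every array. Mbp differed by 0.49, Sox10 by 0.19 and Pmp22 by -0.08, while S100b, above background on 3 arrays, differed by -0.75. Skeletal muscle markers, of which Acta1 was the 1 of 8 above background on all arrays, summed to 2.36, 0.819, 0.805 and 0.754; Acta1 differed by 0.58. Among adipocyte markers Lep differed by 0.44 and Lipe by 0.19. The part of these cells in the lower fibrillar values of replicate 1 was not tested.

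**Figure D4:**
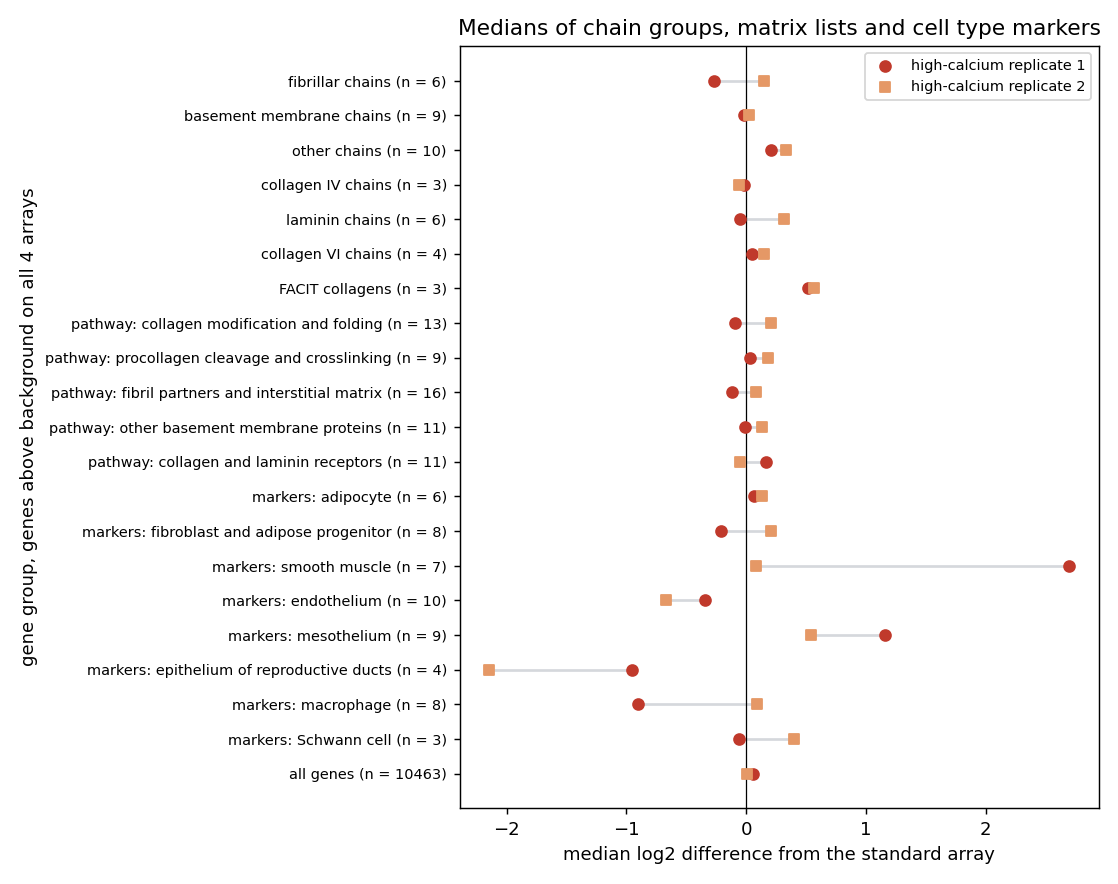
Median log2 difference from the standard array on replicate 1 (circles) and replicate 2 (squares) for chain families, matrix gene lists and cell type markers, over genes above background on all 4 arrays, with the number of genes. Fibrillar chains lie at -0.27 and 0.15, smooth muscle markers at 2.70 and 0.08, and all genes at 0.06 and 0.01.

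The machinery that makes and crosslinks collagen likewise held no gene that passed limma's adjusted threshold. Its counts, and those of the next lists, stand against 35.4% of all genes above background that were higher on both high-calcium arrays and 27.1% that were lower. Of 16 measured genes of collagen modification and folding, which hydroxylate and fold the chains, 13 were above background, 2 of them higher and 2 lower on both high-calcium arrays. Plod2, a lysyl hydroxylase of collagen ends, differed by -0.84 on replicate 1 and -0.02 on replicate 2, and Plod3 by 0.25 and 0.50. Of 12 measured genes of procollagen cleavage and crosslinking 9 were above background, 5 higher and 2 lower on both arrays. The lower pair was Lox and Pcolce. Lox, the lysyl oxidase that starts the crosslinks of fibrils, had 0.33 and 0.39 on the high-calcium arrays, 1.03 on the standard array and 0.81 on the array of open diet. The high-calcium arrays were close to each other and 1.59-fold below the standard array, a log2 difference of -0.67 (SE 0.32). Pcolce, the enhancer of the procollagen C-proteinase, had 1.49 and 2.41 on replicates 1 and 2 against 2.60 on the standard array, so that replicate 1 set most of its difference.

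Partners of the fibrils lay on both sides of the standard array. All 16 measured genes of this list were above background, 5 higher and 7 lower on both high-calcium arrays, with a median log2 difference of 0.06. Thbs1, the matricellular protein thrombospondin 1, had -0.81 and -0.10 against -1.69 on the standard array and -0.53 on the array of open diet, a 2.36-fold difference. Dpt, dermatopontin, which binds fibrils and is also in the fibroblast list, had 3.12 and 3.67 against 4.19 and 3.51. Of 16 measured other basement membrane proteins 11 were above background, 4 higher and 2 lower on both arrays. Hspg2, the proteoglycan perlecan, differed by 0.62 and 0.20 on replicates 1 and 2, and Nid2, a nidogen that links laminin to collagen IV, by -0.51 and -0.29.

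Receptors for these chains were led by Bcam, which binds laminins that hold the alpha 5 chain. Bcam had -2.83 and -2.64 on the high-calcium arrays, -3.30 on the standard array and -3.09 on the array of open diet. Both high-calcium arrays lay above the single standard array, as with Lama5 and 35.4% of all genes above background. The difference was 0.57 (SE 0.33), and Bcam did not pass limma's adjusted threshold. On replicate 1 it was 0.48 above the standard array, where the log2 array medians were -3.38 and -4.0. Lair1, an inhibitory collagen receptor of immune cells, had -2.05 and -0.61 against -0.83, so that its high-calcium arrays lay on either side of the standard array. Of 14 measured receptors 11 were above background, 4 higher and 3 lower on both high-calcium arrays, near the shares of all genes above background.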

How the data were processed

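Biotin-labelled RNA of epididymal fat was hybridised to 4 Affymetrix Mouse Genome arrays with 45101 probe sets. The values deposited by the authors are linear intensities. Per the submitters' processing notes RMA was used, whose output is on the log2 scale; the authors' scaling of each array is not stated in these sources. The lowest value of each array is 0.01 of its median.

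Intensities were log2 transformed with no added constant. Probe sets with 1 symbol (34958) were named through the platform annotation and gave 18194 genes, each taken from its brightest probe set by mean log2 signal. limma 3.58.1 (lmFit, eBayes; R 4.3.3) compared 2 high-calcium arrays with 1 standard array, two-sided, with Benjamini-Hochberg adjustment at 0.05. Residual degrees of freedom were 1 before and 2.38 after moderation, which set the 95% intervals; the lone standard array is assumed to vary like the others. The step was tested on simulated data. That test required changes to be called only at a small spread set alike for all genes, and not at the spread of these data. A bound sets the mean of the brighter group against the median of the dimmer arrays, on the deposited scale. The log2 array median was -3.38 on replicate 1 and -4.0 on the standard array, and bounds were not recomputed on median-centred arrays.

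The members, gene lists and the rule for named genes were chosen with earlier results of these data known. That rule gave full values for core chains and, above background, for chains at least 1.5-fold from the standard array on both arrays or 2-fold between them, and differences for the 2 genes of each list, above background, that differed most. Differences of further chains and genes were named after their values were seen. Lists were described by counts and medians and not tested. Promoters are RefSeq, GRCm38.p6; the series names no genome build. Alternatives were another probe set rule, normalization, pseudocount of 0.1, filter, prior and leaving out an array. Figures used matplotlib 3.10.9.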

Additional observations from a re-analysis of the deposited data

Results flagged for a closer look

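Col14a1, the fibril-associated chain, had a signal on the array of open diet that exceeded its standard-array signal by 0.70 on the log2 scale. The second Col14a1 probe set above background had -1.56 on the array of open diet and -2.08 on the standard array. The share of all genes with such a difference was not computed, and the difference was not tested.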

How the results depend on the processing

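The count of chains called by limma was 0 under all 7 alternatives that allow a test. Over all genes it was 0 as well, except for 96 on median-centred arrays and 6 with a variance trend and robust fitting. Leaving out a high-calcium array leaves no residual degree of freedom and so gives values with no test.

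At least 1.5-fold higher on both high-calcium arrays were 1 chain as deposited, 3 with the mean of all probe sets and 2 after quantile normalization; with either high-calcium array left out 3 to 4 chains reached that fold. Chains at least 1.5-fold lower numbered 0 and, with an array left out, 0 to 2. Centring on array medians moved the family medians to -0.38 for fibrillar, -0.37 for basement membrane and -0.11 for other chains, against -0.06, -0.05 and 0.21 as deposited. The fibrillar median was -0.27 without replicate 2 and 0.15 without replicate 1, a change of sign. The basement membrane median was -0.0031 with the mean of all probe sets and -0.02 to 0.02 with an array left out; that of other chains was then 0.21 to 0.33.

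Of the differences of single chains under the alternatives with a test, 135 kept their sign and 13 turned. Part of the 135 could not turn, as the filter on dim genes leaves the differences of these chains as they are. A probe set rule that keeps the same probe set for a chain does so too. Centring turned Col18a1 (-0.11), Col3a1 (-0.26), Col5a1 (-0.30), Col5a3 (-0.10), Col6a2 (-0.31), Col6a5 (-0.11), Col8a1 (-0.20) and Lamc1 (-0.21). The mean of all probe sets turned Col1a2 (1.38), Col5a1 (-0.01), Col8a1 (-0.51) and Lamb1 (0.37), and quantile normalization turned Col4a2 (0.02). None of these chains passed the threshold in any setting. No paired analysis was possible because the labels name no pairing between arrays of different diets. Signal over background limits the 27 chains that were not above background on all arrays.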
